A study of Caenorhabditis elegans with 2 samples.

Results

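Of the 4384 nuclear ChIP-seq peaks called for the MADF-6 protein in young adult Caenorhabditis elegans, 246 had their summit within 500 bp of the 5′ end of a transfer RNA (tRNA) gene. That is 5.61% of the summits (95% Wilson interval 4.97 to 6.33%), while 0.533% of the nuclear bases lie that close to a tRNA gene. A summit is the base of highest enrichment within a peak, and members were chosen by distance alone: every nuclear summit of the authors' conservative list within 500 bp, on either side, of the annotated 5′ end of a gene of biotype tRNA. Seen from the genes, 280 of the 612 nuclear tRNA genes had such a summit, or 45.8% (41.8 to 49.7%). By the same rule the share was 12.3% for protein-coding genes, 45.0% for small nuclear RNA (snRNA) genes, 37.6% for small nucleolar RNA (snoRNA) genes and 7.99% for annotated genes of every biotype. The tRNA and snRNA shares lay within each other's counting intervals.

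MADF-6 is named for the MADF domain, a DNA-binding domain related to that of Myb and first described in the Drosophila protein Adf-1. The samples were whole worms of strain RW12237, whose allele is st12237[madf-6::TY1::EGFP::3xFLAG] on chromosome I, in which CRISPR was used to insert the tag at madf-6, and the protein was immunoprecipitated with an antibody against GFP. Worms were synchronised by starvation of first-stage larvae after bleaching and collected 63 h old as young adults, with 1 group of 2 biological replicates. Neither an untagged strain nor another stage was analysed here, both replicates carry the tag, and every tissue contributed to the chromatin, so no comparison between conditions was possible and each comparison below is between parts of the genome or between the 2 replicates.

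Transfer RNA genes are short genes read by RNA polymerase III. Their promoter lies inside the gene, in a pair of elements called the A box and the B box, which the factor TFIIIC recognises. TFIIIC then places TFIIIB just upstream of the 5′ end, TFIIIB recruits the polymerase, and transcription stops at a run of T soon after the gene. Many tRNA genes of C. elegans occur in identical copies spread over the chromosomes, often inside introns of protein-coding genes, and the X chromosome is rich in them.

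The sequences of 3 tRNA genes among those at the strongest summits are printed below. They are given 5′ to 3′ on the gene's own strand, from assembly WBcel235, and capitals mark the core of the B box (GTTCNANNC, where N is any base). ZK1067.t1 is a tyrosine tRNA gene at chrII:9211804-9211887 on the minus strand, with a summit 1 bp inside its 5′ end. Y39B6A.t9 is a phenylalanine tRNA gene at chrV:19126044-19126116 on the plus strand, with a summit 17 bp inside. C04A11.t1 is a leucine tRNA gene at chrX:13665555-13665673 on the plus strand, which at 119 bp is among the longest tRNA genes, and its summit lay 27 bp inside. The peak at C04A11.t1 ended at position 13665616, inside the gene and before the B box core.
ZK1067.t1: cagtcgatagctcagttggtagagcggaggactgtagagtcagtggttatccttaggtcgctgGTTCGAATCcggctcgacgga
Y39B6A.t9: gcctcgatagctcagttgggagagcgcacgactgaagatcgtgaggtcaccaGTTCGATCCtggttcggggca
C04A11.t1: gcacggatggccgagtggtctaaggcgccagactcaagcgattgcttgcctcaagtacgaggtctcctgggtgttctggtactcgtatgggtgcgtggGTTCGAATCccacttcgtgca
The B box core was present in 272 of the 280 tRNA genes with a summit (97.1%) and in 315 of the 332 without one (94.9%). The A box, searched for by its consensus in the first 40 bases, was found in 99.6% of genes with a summit (98.0 to 99.9%). It was found in 94.3% of those without (91.2 to 96.3%). TTTT, the usual polymerase III stop, stood within the 30 bases after the gene in 99.6% of genes with a summit and in 98.2% of those without, against 36.1% of all 30-base windows of the genome read on the plus strand. These elements were thus common in both classes. The intervals of genes with and without a summit overlapped for the B box core and for TTTT, but not for the A box. Read on both strands in the 301 bases centred on the summit, the B box core was found at 95.5% of the summits at tRNA genes. It was found at 10.2% of the other summits and in 10.6% of windows of that length tiling the genome. The first share goes with the choice of summits near tRNA genes, most of which hold the core, and is not a separate finding.

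One window shows how a summit can be counted for more than 1 gene under the 500 bp rule. The alanine tRNA genes F15G9.t1 and F15G9.t2 stand in tandem on the plus strand of X, inside the gene him-4, which encodes the extracellular matrix protein hemicentin. A single summit, at base 72 of the 300 bases printed from chrX:9743554-9743853, lay 36 bp inside F15G9.t1 and 122 bp upstream of F15G9.t2. Its peak ended at position 9743653, before F15G9.t2. Capitals mark the 2 tRNA genes.
F15G9 pair: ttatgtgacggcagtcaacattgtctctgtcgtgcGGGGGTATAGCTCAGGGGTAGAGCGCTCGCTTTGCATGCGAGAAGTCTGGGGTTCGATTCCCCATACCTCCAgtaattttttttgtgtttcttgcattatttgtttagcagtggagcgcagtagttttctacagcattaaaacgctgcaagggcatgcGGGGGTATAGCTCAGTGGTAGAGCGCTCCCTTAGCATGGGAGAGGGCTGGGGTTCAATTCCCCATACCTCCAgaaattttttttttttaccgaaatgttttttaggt
Of the 246 summits, 198 had 1 tRNA gene within 500 bp, 45 had 2, 2 had 3 and 1 had 4. When each summit was counted for its nearest tRNA gene alone, 240 tRNA genes had one.

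Most of the summits sat on the tRNA gene itself. The median summit lay 13 bp inside the gene from its 5′ end (quartiles -4.75 and 37 bp, with negative values upstream), whereas tRNA genes had a median length of 72 bp. Of the 246 summits, 158 lay inside the tRNA gene (64.2%, interval 58.1 to 70.0%), 72 upstream of it and 16 downstream. Within 100 bp of the 5′ end stood 227 of them (92.3%, 88.3 to 95%), although the rule allowed 500 bp, and 237 of the 246 peaks overlapped a tRNA gene. Summits near protein-coding genes were placed otherwise: among 2172 of them the median lay 129 bp upstream of the 5′ end (distance -129 bp), 73.7% were upstream and 27.5% were within 100 bp. Of the 246 peaks, 199 spanned 320 bp (80.9%), as did 55.9% of the other peaks. In all of these 199 the summit lay within 1 bp of the centre of the peak, so for most tRNA summits the position is that of the peak's midpoint.

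**Figure D1:**
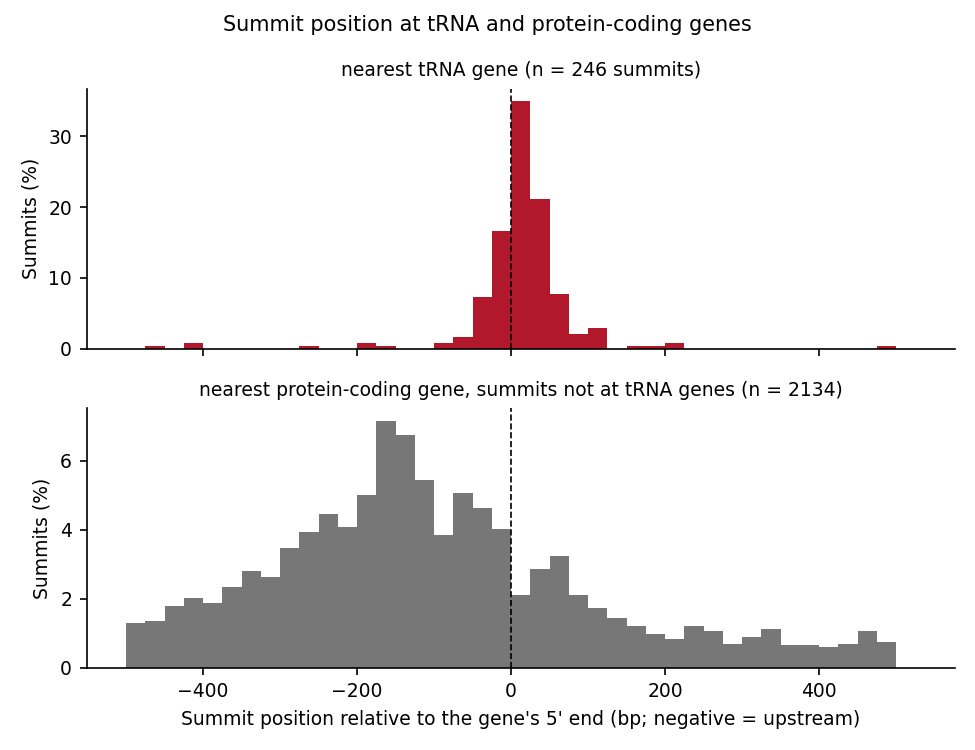
Histogram of summit positions relative to the 5′ end of the nearest gene, in 25 bp bins, as a percentage of summits: tRNA genes above (246 summits), protein-coding genes below (2134 summits that are not at a tRNA gene). Most tRNA summits stood in a narrow band around the 5′ end, while the protein-coding ones spread over the region upstream. The y axes of the 2 panels differ in scale.

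Away from that band, 19 summits lay 101 to 500 bp from the nearest tRNA 5′ end. Of these, 6 had signals under 20, and each of the 6 belonged to a peak that overlapped a second, stronger peak at a tRNA gene. At C06G4.t1 the pair of summits lay 39 bp inside and 161 bp upstream, with signals of 164 and 5.23. At C14B9.t2 they lay 15 bp and 216 bp downstream of the 5′ end, with signals of 224 and 13.2. In all, 7 pairs of neighbouring peaks at tRNA genes overlapped, so the 246 summits stand for somewhat fewer separate places. Just inside the limit of 500 bp were the summits at F58D5.t1 (464 bp, signal 406) and C16D9.t4 (495 bp, signal 467), and just outside were summits 525 bp from Y39B6A.t9 (signal 77.1) and 554 bp from F15D3.t1 (signal 1948).

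Peak signal is the authors' own enrichment value, and levels are comparable within a list but not between lists. Summits at tRNA genes were of middling signal and kept to a narrow range. Their median was 133.6 (quartiles 104.9 and 177.6), and the other 4138 summits had a median of 150.6 (quartiles 94.9 and 284.9). Between 100 and 200 lay 61.4% of the tRNA summits and 33.6% of the others, and above 300 lay 4.07% of the tRNA summits and 23.3% of the others. With the list ranked by signal and divided into 10 equal groups, tRNA summits made up 0.228% of the strongest group, 11.2% of group 5, 11.4% of group 7 and 3.42% of the weakest group. Summits at protein-coding 5′ ends and not at tRNA genes had a median signal of 181.8. A protein-coding 5′ end lay within 500 bp of 38 of the 246 summits (15.4%), and the 208 without one had a median signal of 128.9.

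**Figure D2:**
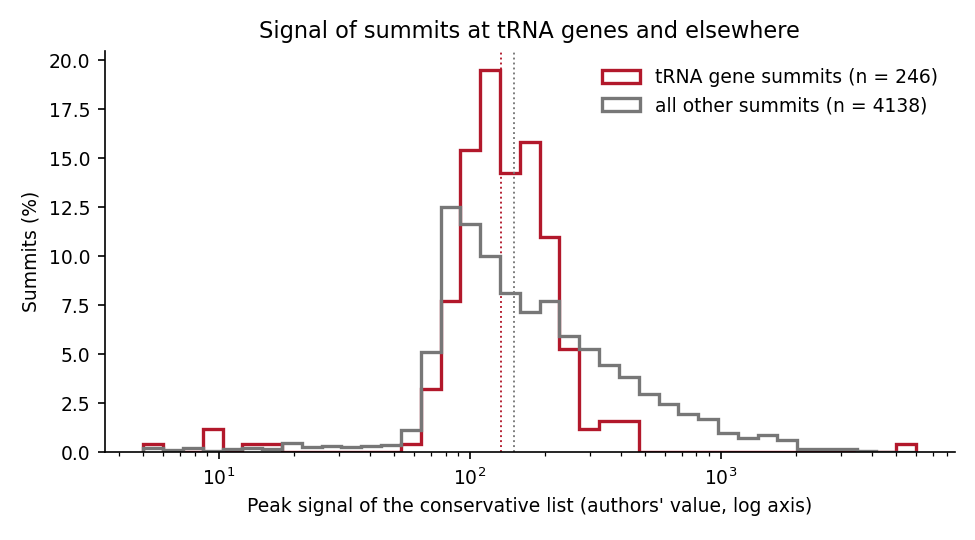
Distribution of peak signal (x axis, authors' value, log scale) as a percentage of summits (y axis), in red for the 246 summits at tRNA genes and in grey for the 4138 others. Dotted lines mark the medians, 133.6 for tRNA summits and 150.6 for the others. The tRNA summits form a narrow hump that lacks most of the strong tail of the others, with 1 summit at 5211 and 6 under 20.

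The strongest of these summits was also the strongest of the whole list, and it was not on a tRNA gene. It lay on chromosome I, 416 bp upstream of the threonine tRNA gene T04D3.t4, with a signal of 5211. Its signal was 1723 in replicate 1 and 3528 in replicate 2, where it was the strongest peak of each list. The next summit, 495 bp downstream of the 5′ end of the tyrosine tRNA gene C16D9.t4 on chromosome V, had a signal of 467, with 146 in replicate 1 and 318 in replicate 2. With F58D5.t1, these make 3 of the 15 strongest summits that stood over 400 bp from the tRNA 5′ end, and none of the 3 peaks overlapped a tRNA gene. The other 12 stood within 100 bp.

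Among those 12, the lysine tRNA gene M01E5.t1 on chromosome I had the highest signal, 409.9, with a summit 63 bp upstream and values of 144.6 in replicate 1 and 259.6 in replicate 2. The arginine tRNA gene F47G6.t1 lies inside spe-15, a myosin gene of spermatogenesis, and had a signal of 394.9, with 146.9 in replicate 1 and 237.5 in replicate 2. The glutamate tRNA gene K02B12.t1 lies inside zhp-3, whose product acts in meiotic crossing over, and had a signal of 371.1, with 121.2 in replicate 1 and 233.8 in replicate 2. All 3 were on chromosome I, and in each the summit was upstream of the 5′ end.

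The tyrosine tRNA gene ZK1067.t1, printed above, had a signal of 372.9, with 117.2 in replicate 1 and 261.5 in replicate 2. The lysine tRNA gene C56G7.t1 on chromosome III had a signal of 365.3, with 114.5 in replicate 1 and 257.5 in replicate 2. Its summit stood 10 bp upstream of the tRNA gene, inside hecw-1, which encodes a ubiquitin ligase, and also 392 bp upstream of the 5′ end of elmd-1. The isoleucine tRNA gene C27A2.t1 on chromosome II had a signal of 362.4, with 108.7 in replicate 1 and 267.5 in replicate 2, and its summit lay 5 bp upstream. Of the 15, C56G7.t1 and the glycine tRNA gene T04D3.t2 were the ones with a protein-coding 5′ end within 500 bp of the summit. T04D3.t2 lies inside gcy-35, a soluble guanylate cyclase gene that serves oxygen sensing, and had a signal of 267.8, with 84.8 in replicate 1 and 168.9 in replicate 2. The phenylalanine gene Y39B6A.t9 had a signal of 275.1, with 96.0 in replicate 1 and 199.0 in replicate 2. The arginine gene F56F3.t1 on chromosome III closed the autosomal ones at 264.9, with 99.98 in replicate 1 and 164.3 in replicate 2.

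The 3 strongest tRNA summits on X were at the glycine tRNA gene M02F4.t1, at the F15G9 pair and at C04A11.t1. The glutamate tRNA gene M02F4.t2 faces away from M02F4.t1 on the other strand. Among all summits on X, the one at M02F4.t1 had rank 5 by signal, and the highest signal away from tRNA genes was 519.1. The M02F4.t1 summit, 18 bp upstream, had a signal of 312.5, with 97.1 in replicate 1 and 212.6 in replicate 2. The F15G9.t1 summit had 284.9, with 110.3 in replicate 1 and 179.7 in replicate 2. The C04A11.t1 summit had 263.2 in the conservative list and 171.3 in replicate 2, while no peak of replicate 1's own ranked list overlapped it, although the conservative list combines both replicates.

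The X chromosome stood apart from the autosomes in how its few summits were placed. It holds 276 of the 612 nuclear tRNA genes (45.1%) and 13.7% of the protein-coding genes. On X, 94 of the 276 tRNA genes had a summit (34.1%, 28.7 to 39.8%), as did 51 of 2731 protein-coding genes (1.87%, 1.42 to 2.45%). On the autosomes, 186 of 336 tRNA genes had one (55.4%, 50.01 to 60.6%), as did 2411 of 17242 protein-coding genes (14.0%, 13.5 to 14.5%). For both kinds of gene the interval on X lay below that of the autosomes pooled. Of the 201 summits on X, 77 were at tRNA genes (38.3%, 31.9 to 45.2%), against 169 of 4183 on the autosomes (4.04%, 3.48 to 4.68%). No test was made of these shares, because genes and peaks of 1 group of animals are not replicates.

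**Figure D3:**
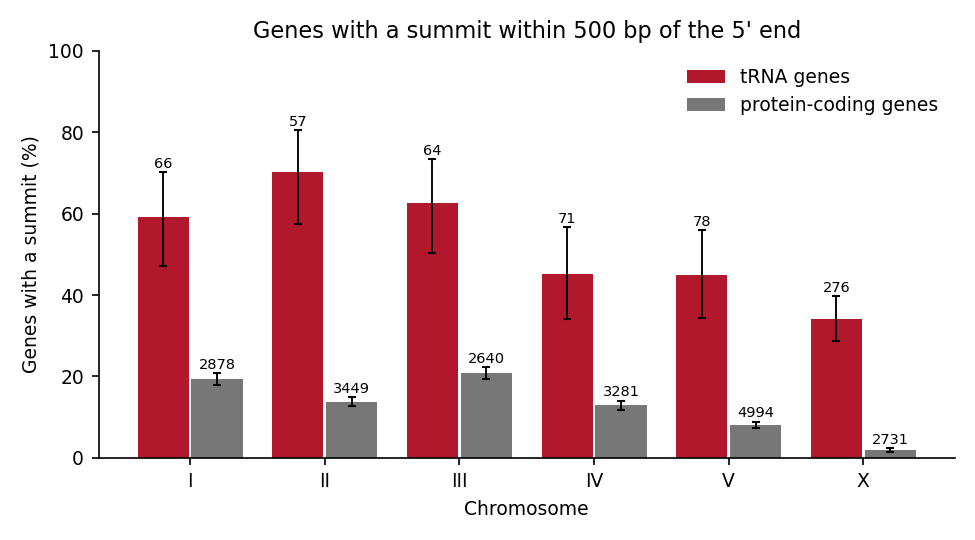
Percentage of genes with a summit within 500 bp of the 5′ end on each chromosome, tRNA genes in red and protein-coding genes in grey, with 95% Wilson intervals as bars and the number of genes above each. The tRNA share ran between 34.1% on X and 70.2% on chromosome II, and the protein-coding share was lowest on X at 1.87%.

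Among the autosomes the share of tRNA genes with a summit was 59.1% on I, 70.2% on II, 62.5% on III, 45.1% on IV and 44.9% on V. The intervals of IV (34.0 to 56.6%) and V (34.3 to 55.9%) overlapped that of X, while those of I, II and III lay above it. Summits at tRNA genes on X had a median signal of 120.7 (lowest 8.76, highest 312.5), those on the autosomes had 143.6, and the other 124 summits on X had 100.8. On X, 72 of the 77 summits lay within 100 bp of the tRNA 5′ end, and 5 had a protein-coding 5′ end within 500 bp. After the 3 named above, the strongest tRNA summits on X were at the tyrosine gene R11.t1 (256.8) and the leucine gene C40H5.t1 (226.8). Next came the alanine genes T07H6.t2 (218.0) and T18D3.t1 (209.8) and the leucine gene C53C7.t3 (205.1). Along X in steps of 2 Mb, between 20.6% and 43.5% of the tRNA genes had a summit in 8 of the 9 steps, and 14 of the 16 tRNA genes between 2 and 4 Mb had one (87.5%, 63.98 to 96.5%).

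The replicates differed in how many tRNA genes they listed. In replicate 1's own thresholded list, 167 tRNA genes had a summit (27.3%), beside 8.75% of protein-coding genes. In replicate 2's, 286 did (46.7%), beside 12.9% of protein-coding genes, and 134 had one in both. Replicate 1's list was shorter as a whole, with 2791 nuclear peaks against 4519. Of the 246 tRNA summits of the conservative list, 123 overlapped a peak in replicate 1's list (50%, 43.8 to 56.2%), 208 one in replicate 2's (84.6%, 79.5 to 88.5%), 112 both and 27 neither. For the other 4138 summits these shares were 59.8% in replicate 1, 83.3% in replicate 2 and 56.8% in both. The interval of the tRNA share lay below that of the others in replicate 1 (58.3 to 61.3%), and the 2 intervals overlapped in replicate 2. With the chromosomes taken apart, replicate 1 listed 41.6% of tRNA summits and 32.3% of other summits on X, and 53.8% of tRNA summits (46.3 to 61.2%) and 60.7% of other summits (59.1 to 62.2%) on the autosomes. Both replicates listed 33.8% of tRNA summits and 29.8% of other summits on X, and 50.9% of tRNA summits and 57.6% of other summits on the autosomes. The intervals of tRNA and other summits overlapped in each of these comparisons. In replicate 1 the difference ran the other way on X and the same way as the pooled one on the autosomes. With 169 tRNA summits on the autosomes, overlapping intervals do not show that a difference is absent there. The difference between X and the autosomes was present in each replicate: 17.4% of X tRNA genes against 35.4% of autosomal ones in replicate 1, and 35.1% against 56.3% in replicate 2.

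In the ranked lists, made before the threshold, an overlapping peak was present for 241 of the 246 tRNA summits in replicate 1 (98.0%) and for 238 in replicate 2 (96.7%). For the other summits the shares were 99.4% in replicate 1 and 98.8% in replicate 2. Its signal had a median of 43.2 in replicate 1 (lowest 26.3, highest 1723) and of 95.2 in replicate 2 (lowest 44.0, highest 3528), each on that list's own scale. Over the 233 summits with a peak in both, the replicates ranked them alike in part (Spearman's rho 0.67 across summits). Summits are not independent and, per the labels, the replicates share a control experiment. The conservative list was made from both replicates with a threshold on reproducibility. The overlap with the ranked lists and this rho therefore describe the summits, and neither tests agreement between the replicates.

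**Figure D4:**
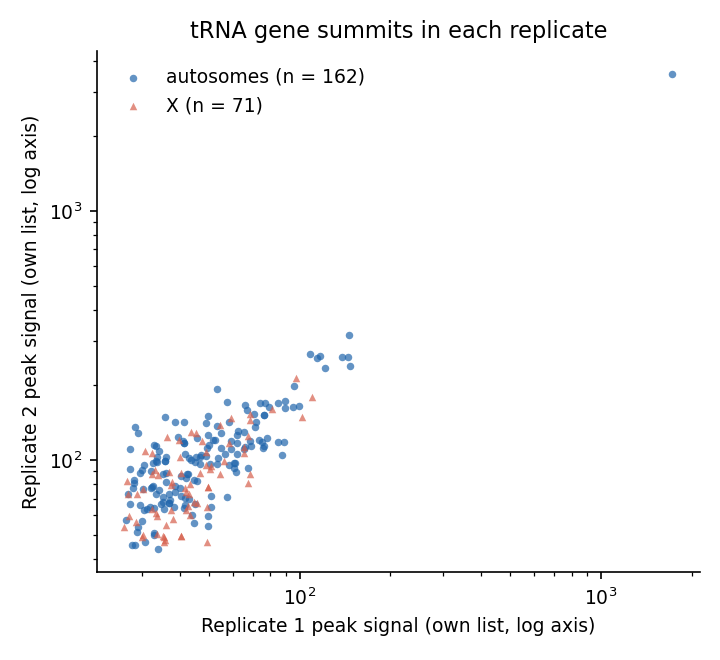
Signal of the overlapping peak in replicate 1 (x axis) and replicate 2 (y axis), each from its own ranked list and on a log scale, for the 233 summits at tRNA genes with a peak in both: 162 on autosomes (circles) and 71 on X (triangles). Points run together from low to high, with wide scatter at low signal and the T04D3.t4 summit alone at the top right.

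Of the 332 tRNA genes without a summit in the conservative list, 101 had a peak of the combined ranked list within 500 bp (30.4%, 25.7 to 35.6%). Among protein-coding genes without a summit the share was 36.7% (36.0 to 37.4%), and among all protein-coding genes it was 44.5%. On X the share was 29.1% of such tRNA genes and 22.0% of such protein-coding genes, and on the autosomes it was 32% of such tRNA genes and 39.3% of such protein-coding genes, with overlapping intervals on X and on the autosomes. The strongest ranked peak at these 101 tRNA genes had a median signal of 58.0 (highest 121.5), and that at the 6424 protein-coding genes had a median of 36.1. In the replicates' own ranked lists, 181 of the 332 tRNA genes had a peak in replicate 1 (54.5%) and 134 in replicate 2 (40.4%). Over all genes, with or without a summit, replicate 1's ranked list reached 74.0% of tRNA genes and 45.5% of protein-coding genes. Replicate 2's reached 66.2% of tRNA genes and 47.3% of protein-coding genes. Counted over all tRNA genes, the combined ranked list had a peak at 53.3% of those on X and at 69.6% of those on the autosomes, against 23.5% of the protein-coding genes on X and 47.8% of those on the autosomes. The order of X and autosomes was thus the same before the threshold. Whether a missing summit reflects less binding or a signal under the threshold cannot be read from these lists.

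Clusters of tRNA genes, defined by 5′ ends chained within 1000 bp of each other, gave different pictures on X and on the autosomes. Of 98 clusters with 2 or more tRNA genes, 45 had every gene within reach of a summit, 14 some and 39 none. On the autosomes every gene was reached in 32 of 45 clusters and none in 8, and on X every gene in 13 of 53 and none in 31. On the autosomes 77.8% of clustered tRNA genes had a summit (68.6 to 84.8%), against 46.0% of lone ones (39.8 to 52.4%). On X the shares were 34.4% of clustered and 33.8% of lone genes. A summit in a cluster can lie within 500 bp of several genes, and with each summit counted for its nearest gene alone the autosomal shares became 55.6% of clustered and 46.0% of lone genes, with intervals that overlap, and those on X 20.6% and 33.8%.

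Within 3 of the largest clusters, F28H6, R11 and F22F1, some genes had a summit within 500 bp and others of the same sequence did not. F28H6 on X holds 6 identical histidine tRNA genes between 14135045 and 14137010. Summits of 104.9 and 90.5 stood 9 bp inside the first gene, F28H6.t2, and 9 bp inside the last, F28H6.t5, and reached F28H6.t7 and F28H6.t4 at over 300 bp. The middle genes F28H6.t3 and F28H6.t6 had no peak within 500 bp in any ranked list used here. H08J11 on X holds 5 glutamine tRNA genes between 9090698 and 9091628, of which H08J11.t1 had a summit 12 bp inside (97.2) and H08J11.t3 one 8 bp inside (151.2), with the other 3 within 500 bp of one of these. In the R11 cluster on X, 4 identical tyrosine tRNA genes span 16208346 to 16209852, and R11.t1 alone of them had a summit, with a signal of 256.8, 102.2 in replicate 1 and 149.3 in replicate 2. Its 3 copies had ranked peaks of 43.4 to 50.5 in the combined list. F22F1 on X, with 6 genes for serine, aspartate, methionine and isoleucine tRNAs, had 1 summit of 75.4, and the 4 glycine genes of C12C8 on chromosome I shared 2 summits of 99.0 and 130.2. The 5 cysteine and arginine genes of K01A12 on X had none. The 3 genes of F49C5 on chromosome II, for lysine, leucine and alanine tRNAs, all had a summit within 500 bp, with signals of 108.1 and 173.3. Y65A5A on chromosome IV had a summit within 500 bp of 3 of its 4 genes.

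Identical copies often differed in this way across the genome. The 612 genes have 200 distinct sequences, and 57 of these occur in 2 or more copies. In 45 of the 57 some copies had a summit and others had none, in 4 every copy had one and in 8 none did. The largest groups with both kinds were a glycine tRNA gene with a summit at 13 of 29 copies, a lysine gene at 16 of 25, a proline gene at 14 of 24, an aspartate gene at 14 of 21 and a glutamate gene at 8 of 20. Within these groups copies on X had a summit at 2 of 11 glycine, 4 of 10 lysine, 6 of 13 proline, 5 of 10 aspartate and 2 of 12 glutamate genes. Smaller groups ran both ways, with a summit at 5 of 5 copies on X of an asparagine gene that has 18 copies, at 7 of 9 of a glutamine gene and 7 of 8 of a glutamate gene that have 15 each, and at 1 of 7 copies on X of a threonine gene that has 15. Of the 36 groups with both kinds of copy and with members on X and on autosomes, the share with a summit was lower on X in 27 and higher on X in 9. Over all genes with an identical copy, 36.5% of those on X had a summit (30.4 to 43.1%), against 60.4% of those on the autosomes (54.2 to 66.3%).

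The pairs below print 2 such sequences as examples, to let the shared gene and the unshared flanks be compared. In the first pair, the copy with the highest signal of its group stands beside a copy without a peak. Other copies differed less: the alanine gene ZK622.t1, without a summit in the conservative list, had a peak of 55.1 in replicate 1 and 130.1 in replicate 2. Each line gives 40 bases before the gene in lower case, the gene in capitals and 30 bases after it. The threonine gene Y39A1A.t1, inside hpr-9 at chrIII:10624742-10624813 on the minus strand, had a summit 17 bp inside with a signal of 257.5, or 89.6 in replicate 1 and 172.6 in replicate 2. Its identical copy F36D4.t2, at chrV:9407040-9407111 on the minus strand, had no peak within 500 bp in any ranked list used here.
Y39A1A.t1: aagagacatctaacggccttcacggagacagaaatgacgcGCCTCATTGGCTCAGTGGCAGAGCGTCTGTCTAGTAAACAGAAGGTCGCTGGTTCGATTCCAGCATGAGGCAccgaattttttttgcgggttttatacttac
F36D4.t2: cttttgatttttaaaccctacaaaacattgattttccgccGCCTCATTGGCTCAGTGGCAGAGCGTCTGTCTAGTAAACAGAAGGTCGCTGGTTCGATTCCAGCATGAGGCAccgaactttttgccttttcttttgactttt
The proline gene W09D6.t1, at chrIII:11067027-11067098 on the plus strand, had a summit 42 bp upstream, between it and the identical gene W09D6.t2 on the minus strand, with a signal of 248.8, or 89.5 in replicate 1 and 161.7 in replicate 2. Its identical copy T22F3.t2, at chrV:3588503-3588574 on the plus strand, had no summit, and its strongest ranked peak within 500 bp had 101.1 in the combined list, 23.4 in replicate 1 and 79.7 in replicate 2.
W09D6.t1: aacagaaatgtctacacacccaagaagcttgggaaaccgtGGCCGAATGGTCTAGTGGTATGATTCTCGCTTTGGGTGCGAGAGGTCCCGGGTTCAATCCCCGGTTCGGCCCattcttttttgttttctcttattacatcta
T22F3.t2: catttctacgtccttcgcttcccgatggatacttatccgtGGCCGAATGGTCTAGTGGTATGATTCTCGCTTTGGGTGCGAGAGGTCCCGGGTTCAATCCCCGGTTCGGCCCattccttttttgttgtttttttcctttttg

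Because copies are identical, short reads from inside a tRNA gene need not have a single place in the genome, and how such reads were treated is not given in the sources used here. No 31-base word inside the gene was unique in the genome for 77.5% of the tRNA genes. The share was 82.9% of those with a summit and 72.9% of those without. The surroundings were mostly unique: in the 1001 bp centred on the 5′ end, a median of 93.8% of the 31-base words were unique. That median was the same for genes with a summit and for those without. Summits stood at 3 of 11 tRNA genes where under 50% of the words were unique, at 17 of 55 between 50 and 80%, at 219 of 442 between 80 and 95%, and at 41 of 104 from 95% up. The part that repeated sequence plays in which copies have a summit was not tested.

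Sorted by the amino acid their tRNA carries, most classes could not be told apart at these numbers of genes. Among the 20 classes with 10 or more genes, the share with a summit was highest for aspartate, at 18 of 27 genes (66.7%, 47.8 to 81.4%), glutamine, at 17 of 27 (63.0%), alanine, at 21 of 34 (61.8%), and leucine, at 23 of 39 (59.0%). It was lowest for tryptophan, at 3 of 12 (25%, 8.89 to 53.2%), valine, at 8 of 31 (25.8%), methionine, at 6 of 20 (30%), and tyrosine, at 6 of 19 (31.6%). The intervals of neighbouring classes in that order overlapped, and the interval of valine (13.7 to 43.2%) lay below those of aspartate, glutamine, alanine and leucine. The single selenocysteine tRNA gene had a summit with a signal of 196.1, and the 5 genes whose amino acid RefSeq does not give had none. On X, asparagine genes had a summit at 5 of 6 and glutamine genes at 10 of 15, whereas arginine genes had one at 4 of 27 and phenylalanine genes at 0 of 6.

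**Figure D5:**
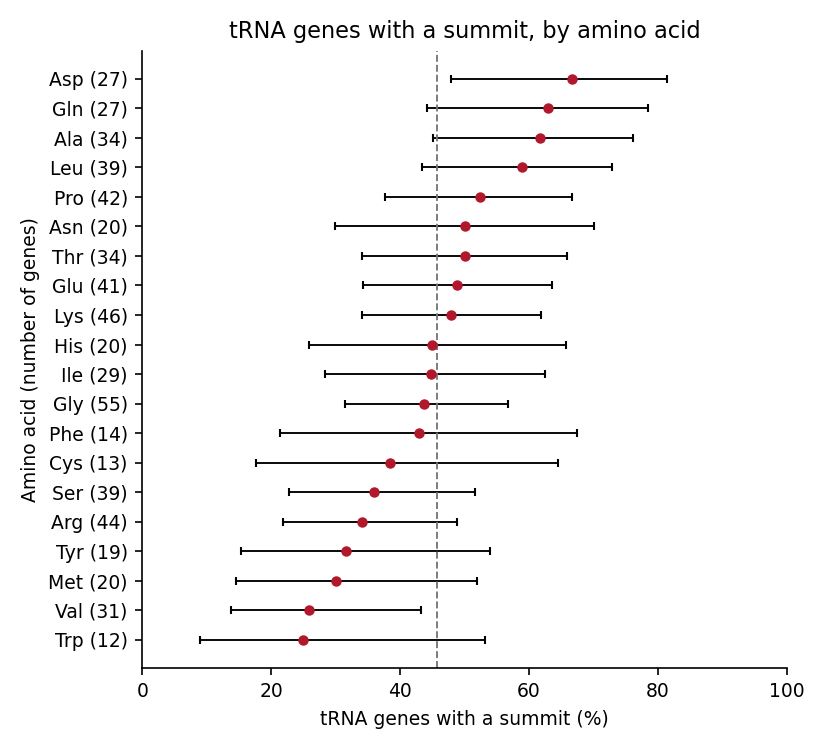
Percentage of tRNA genes with a summit (x axis) for each amino acid with 10 or more genes (y axis, number of genes in brackets), with 95% Wilson intervals. The dashed line marks the share over all 612 tRNA genes, 45.8%. The points run between 25% for tryptophan and 66.7% for aspartate, with wide intervals that overlap between neighbouring classes.

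Position among protein-coding genes was also compared. Inside a protein-coding gene, 149 of 290 tRNA genes had a summit (51.4%, 45.6 to 57.1%), against 131 of 322 outside (40.7%, 35.5 to 46.1%). Of the tRNA genes on X, 34.8% lie inside one, and within each kind of chromosome the intervals overlapped: 39.6% inside against 31.1% outside on X, and 57.2% against 52.8% on the autosomes. With a protein-coding 5′ end within 500 bp, 49.5% of tRNA genes had a summit, against 45.1% of those without, intervals that also overlap. The 22 mitochondrial tRNA genes were left out.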

How the data were processed

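Peak lists of ChIP-seq on 2 biological replicates were taken as the authors deposited them, on ce11 coordinates (the same assembly as WBcel235), 1-based here. Per the labels, chromatin was sonicated and an anti-GFP antibody was used. Which aligner and peak caller were used, and with what settings, is not given in the sources used here, and read depth is unknown. The labels name 1 control experiment for both replicates. The deposited signal of each peak is the authors' enrichment value, on a scale that differs between lists. The deposited score is a scaled irreproducible discovery rate (IDR), at least 830 in thresholded lists and at most 1000. The 8 unnamed per-replicate columns of the combined ranked list were not used. 7 lists were used: 2 thresholded and 1 ranked list combining the replicates, and 1 of each kind per replicate.

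Summits were assigned to 5′ ends of Ensembl release 115 genes within 500 bp (Python 3.11.15, pandas 2.3.3, NumPy 2.4.6, SciPy 1.17.1). All 612 nuclear tRNA genes paired with RefSeq entries with the same ends, which gave names and amino acids. Replicate values are those of the overlapping peak (by 1 bp or more) with the nearest summit. Intervals are 95% Wilson intervals and cover counting error only. No test was run, since there is 1 group. Assignment was checked on 200 planted summits, of which 200 came back right. Genes named in the text are those at the 15 strongest summits, the strongest on X, the largest clusters, the largest groups of identical genes and the printed pairs. The 6 weak summits and single amino acid classes were named after their values were seen. Members and lists were chosen with earlier results of these data known. Sequences are from the WBcel235 genome; those on chromosome I are not printed.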

Additional observations from a re-analysis of the deposited data

How the results depend on the processing

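Of 58 recomputed values, 48 stayed within 1.5 times of the count, or within the interval of the share or median, and 10 moved. The number of tRNA genes with a summit was 266 within 250 bp, 300 within 1000 bp, 307 in the less strict list, 240 at the nearest gene alone, 250 by overlap of the peak with the gene and 240 without summits near protein-coding 5′ ends, but 130 with the 2192 strongest summits. By each replicate's list alone it was between 167 (replicate 1's) and 286 (replicate 2's), and the share on X ranged from 17.4 to 35.1%, that on the autosomes from 35.4 to 56.3%, and the share of summits inside the gene from 53.8 to 65.8%. The median signal over that of all summits, 0.90 as reported, was 1.00 in the less strict list and ranged from 0.80 to 0.93 in the replicates' lists, so its standing below that of all summits depends on the list. With ranked in place of thresholded lists, the share of summits found was 98.0% in replicate 1 and 96.7% in replicate 2. Within 1000 bp, 61.3% of clustered tRNA genes had a summit. The cause of these shifts was not tested. Replicate 1's list was shorter, and the list of strongest summits held fewer peaks. No paired analysis was possible because there is 1 group and no result comes from a test. An untagged control and read depth, which would set how weak a peak can be read, were not analysed here.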

Other observations

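The tRNA genes ZK622.t1, for alanine on chromosome II, and K09A11.t1, for tyrosine on X, had a summit in the thresholded list of each replicate and none in the conservative list. At ZK622.t1 the peak had a signal of 55.1 in replicate 1 and 130.1 in replicate 2, and at K09A11.t1 it had 53.5 in replicate 1 and 98.4 in replicate 2. Neither had a peak within 500 bp in the combined ranked list either, so the number of tRNA genes with a summit is not a simple union or intersection of the replicates' lists. On the mitochondrial chromosome, left out above, replicate 1's thresholded list held 12 peaks and replicate 2's held 0.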
